A study of Mus musculus with 19 samples.

Results

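The TRPA, TRPV and TRPM channels Trpa1, Trpv1, Trpv2, Trpv3, Trpv4, Trpm2, Trpm3, Trpm4, Trpm7 and Trpm8 were taken by symbol from the expression table, and all 10 of 10 were found among its 18666 genes. They were followed in sensory neurons of dorsal root ganglia (DRG) that were sorted by fluorescence from C57BL/6 males aged 2 months. Neurons genetically labelled with GFP for MrgprA3, an itch receptor (MrgprA3+), were compared with unlabelled neurons of similar morphology (MrgprA3-). Mice with allergic contact dermatitis (ACD) had been given squaric acid dibutylester, a contact sensitizer, at 0.5% in acetone on the abdomen and later on the lower back, and control mice had been given acetone. The labels give 5 mice to each treatment, and 16 ganglia of each mouse, taken on day 13, yielded both populations. The libraries were 5 MrgprA3+ control, 5 MrgprA3- control, 4 MrgprA3+ ACD (replicates 1, 2, 4 and 5) and 5 MrgprA3- ACD; replicate 3 of the MrgprA3+ ACD group was not analysed here. The mice of all 4 groups carried the label, and the MrgprA3- gate was a mixture of neuron classes set by cell shape, not by a marker.

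TRP channels are cation channels of the cell membrane that open in response to heat, cold, irritants or intracellular messengers. In sensory neurons TRPV1 is the capsaicin and heat receptor, TRPA1 opens to electrophilic irritants such as mustard oil and to signals from several itch receptors, TRPM8 is the menthol and cold receptor, and TRPM3 and TRPM2 have also been linked to the sensing of warmth and heat. TRPV2 responds to noxious heat in cell lines, TRPV3 is best known from keratinocytes, TRPV4 responds to swelling and warmth, TRPM4 passes monovalent cations when calcium rises in the cell, and TRPM7 joins a magnesium-permeable pore to a kinase.

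Levels are given as FPKM, fragments per kilobase of transcript per 1e+06 fragments, which is scaled by length and so can be set side by side between genes. Depth was estimated at 10.4 to 21.2 M fragments (M, 1e+06). The labelled receptor gene Mrgpra3 had 948.12 to 1445.60 FPKM in MrgprA3+ control and 836.10 to 1078.64 FPKM in MrgprA3+ ACD libraries, and 14.01 to 26.38 FPKM in MrgprA3- libraries. The 14 pan-neuronal markers were all detected in each group, with a summed level of 8910 to 13400 FPKM per library, mostly Tubb3. Of 13 tested in control mice, 4 were higher and 3 lower in MrgprA3+ neurons, where 8.64% of all genes were higher and 18.4% lower. Snap25 averaged 371 FPKM (SD 42.0, n = 5) in MrgprA3+ against 927 FPKM (SD 104, n = 5) in MrgprA3- control libraries. Tubb3 went the other way, with 6660 FPKM (SD 692, n = 5) against 5370 FPKM (SD 964, n = 5). The sum of the 14 markers was 11100 to 13000 FPKM in MrgprA3+ and 8910 to 12100 FPKM in MrgprA3- control libraries. Markers of satellite glia summed to 212 to 394 FPKM in MrgprA3+ and 441 to 566 FPKM in MrgprA3- control libraries, and markers of Schwann cells to 1250 to 1540 and 1070 to 1360 FPKM. Glial markers were thus detected in both populations.

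Promoter windows were looked up because several of the channels moved together between the populations. RefSeq windows of GRCm38.p6 matched 8 of the 10 genes, all but Trpa1 and Trpm4. The lines below show the 250 bases before the start of the 4 matched genes whose level passed the test between the populations: Trpv1 (chr11:73233899-73234148, plus strand), Trpv2 (chr11:62574236-62574485, plus strand, the first of 3 windows listed for it), Trpm2 (chr10:77969873-77970122, minus strand) and Trpm8 (chr1:88306485-88306734, plus strand). Capitals mark matches to 4 motifs on either strand, none of which overlap here. The RUNX core was searched as TGTGGT and also in the variant form that reads TGCGGT. The GC box was searched as GGGCGG, and the CCAAT box by the letters of its name. The TATA box was searched as TATAAA.
Trpv1: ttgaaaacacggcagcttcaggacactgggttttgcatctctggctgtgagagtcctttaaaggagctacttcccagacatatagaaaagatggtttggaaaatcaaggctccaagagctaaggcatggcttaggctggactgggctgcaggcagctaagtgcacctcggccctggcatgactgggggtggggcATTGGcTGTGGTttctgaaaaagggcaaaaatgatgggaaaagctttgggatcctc
Trpv2: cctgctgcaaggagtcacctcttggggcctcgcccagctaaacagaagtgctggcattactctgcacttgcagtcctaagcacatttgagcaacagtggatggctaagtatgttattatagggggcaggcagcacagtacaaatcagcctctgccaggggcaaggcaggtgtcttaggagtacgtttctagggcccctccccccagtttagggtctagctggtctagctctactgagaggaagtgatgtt
Trpm2: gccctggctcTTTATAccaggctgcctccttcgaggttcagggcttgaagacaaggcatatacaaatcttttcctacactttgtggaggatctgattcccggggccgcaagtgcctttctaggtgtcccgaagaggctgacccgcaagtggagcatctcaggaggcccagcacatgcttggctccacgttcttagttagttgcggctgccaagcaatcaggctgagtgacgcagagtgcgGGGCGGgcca
Trpm8: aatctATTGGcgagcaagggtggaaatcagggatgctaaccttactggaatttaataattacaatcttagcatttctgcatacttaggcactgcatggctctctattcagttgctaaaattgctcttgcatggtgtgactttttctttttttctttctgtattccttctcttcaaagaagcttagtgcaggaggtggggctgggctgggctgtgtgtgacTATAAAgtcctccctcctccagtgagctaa
The Trpv1 window held 1 RUNX core and 1 CCAAT box, the latter as ATTGG on the printed strand, and these lay beside each other with 1 base between them. The Trpv2 window held none of the 4 motifs. The Trpm2 window held 1 GC box at its end nearest the start and 1 TATA box on the other strand at its far end. The Trpm8 window held 1 TATA box near its end and 1 CCAAT box near its beginning, and with 42.8% G and C it was below the 52.0% median of 27025 promoter windows. No motif was shared by the 4 windows. Of those 27025 windows 18.7% held a RUNX core, 32.9% a GC box, 34.5% a CCAAT box and 13.0% a TATA box, so each of these matches is a common one. A match describes these letters and does not show that a factor binds there.

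Trpv1 was the most abundant of the channels in every library of every group. Its mean level exceeded that of 96.6% of all genes in MrgprA3+ control neurons and of 98.1% in MrgprA3- control neurons. Trpv2 followed and then Trpa1 in each group, and neither Trpv1 and Trpv2 nor Trpv2 and Trpa1 overlapped in range within a group. Trpm4 came next by its mean in each group, although in MrgprA3- ACD libraries it exceeded Trpm2 in 2 of 5. Its range overlapped that of Trpa1 in the MrgprA3+ control libraries, although Trpa1 was the higher in 5 of 5 of them. Below these, Trpm7, Trpm3 and Trpm2 averaged between 1.23 and 6.77 FPKM, and neighbours in the order of these 3 overlapped in range in each group. Trpm8, Trpv4 and Trpv3 were the lowest.

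The 10 genes summed to 214 FPKM (SD 44.4, n = 5) in MrgprA3+ control, 346 FPKM (SD 36.8, n = 5) in MrgprA3- control, 230 FPKM (SD 25.1, n = 4) in MrgprA3+ ACD and 391 FPKM (SD 70.4, n = 5) in MrgprA3- ACD libraries. Trpv1 alone made up 61.4% of that sum in MrgprA3+ control and 55.8% in MrgprA3- control libraries, on average. Trpv2 gave 21.9% and 25.3%, and Trpa1 8.3% and 12.0%. Trpm4 gave 4.34% (SD 1.58) and 2.39% (SD 0.259), and in ACD mice 5.06% (SD 0.716) and 2.0% (SD 0.436).

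**Figure D1:**
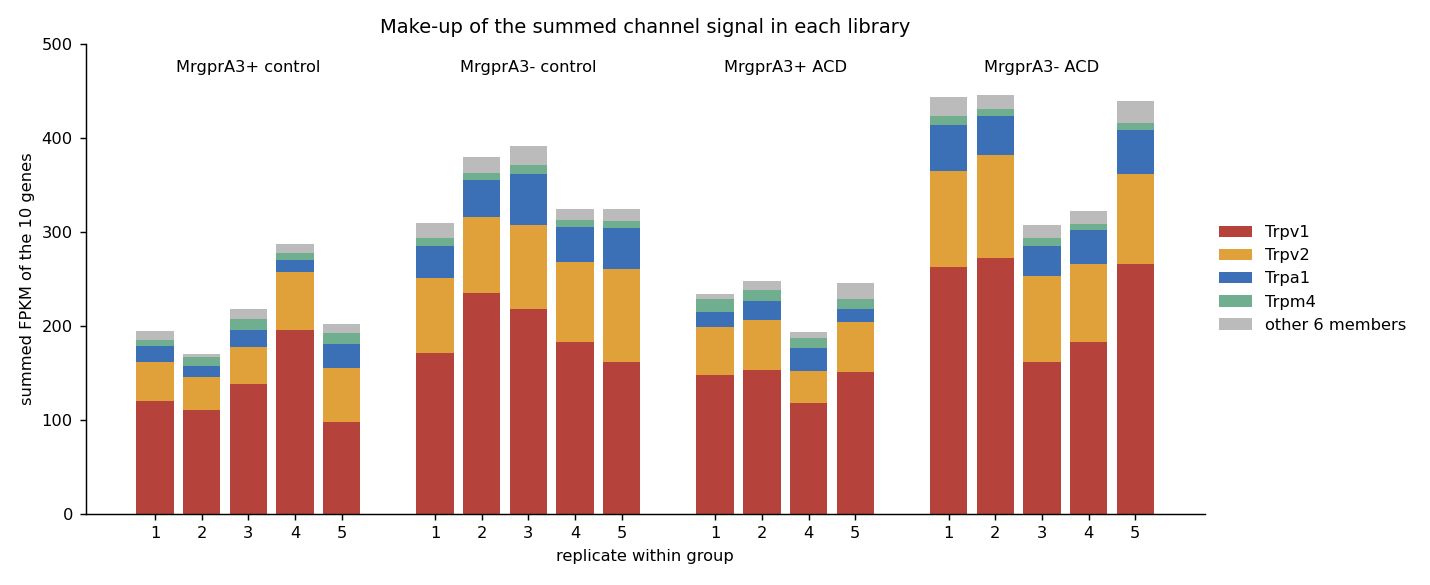
Stacked bars give the FPKM of Trpv1, Trpv2, Trpa1, Trpm4 and the other 6 channels in each of the 19 libraries, by replicate within group. Trpv1 forms the largest block of every bar, and the MrgprA3+ sums lie between 170 and 287.6 FPKM in control mice while the MrgprA3- sums lie between 309.5 and 391.6 FPKM.

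MrgprA3+ and MrgprA3- neurons were compared first, within control mice and within ACD mice, to ask which of the channels differ between labelled itch neurons and their neighbours. In the main fit Trpa1, Trpv1, Trpv2, Trpm2 and Trpm8 were lower in MrgprA3+ neurons under both treatments. Trpm3, Trpm4 and Trpm7 did not pass the test in either. The calls of Trpv1 and Trpm8 in control mice were each lost in 1 alternative setting. For Trpm8 in ACD mice the call was lost in 9 alternatives, left-out libraries among them, and Trpm4 in ACD mice passed in 5. The order of the sizes of the differences depended on the pseudocount and the scaling. Differences are of mean log2(FPKM + 1), which understates the change of genes at low FPKM, and were tested with limma over the 11996 genes that reached 1 FPKM in 4 or more libraries, with a threshold of 0.05 on the p-value adjusted by Benjamini and Hochberg. Trpv3 and Trpv4 did not pass that filter and are given as values.

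In control mice 5 of the 8 channels tested were lower and 0 higher, where 18.4% of all genes tested were lower and 8.64% higher. In ACD mice the same 5 were lower and 0 higher, against 15.2% and 6.84% of all genes. The median difference of the 8 was -0.74 in control and -0.70 in ACD mice, and that of all genes tested was -0.14 and -0.12. Trpm8 passed the filter through 7 MrgprA3- libraries and 1 MrgprA3+ library, so the count of 5 is not independent of the filter. The numbers of calls depended on the scaling between libraries. Under quantile normalization the median of all genes in control mice was 0.04, and 1533 genes were higher and 1529 lower in place of 1037 and 2204. The differences of Trpa1, Trpv1, Trpv2, Trpm2 and Trpm8 kept their sign under that scaling and under median-ratio rescaling in both treatments.

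Markers of other cell types moved in the same comparison. In control mice 6 of 8 tested satellite glia markers, 5 of 7 Schwann cell markers, 4 of 7 markers of peptidergic nociceptors, 4 of 7 of NP1 nociceptors (the Mrgprd class), 6 of 8 of NP3 pruriceptors (the Nppb and Sst class) and 9 of 11 of large diameter neurons were lower in MrgprA3+ neurons, where 18.4% of all genes were lower. Of the Schwann cell, peptidergic and NP1 lists 1 marker each was higher. The summed Schwann cell level had a median of 1330 FPKM in MrgprA3+ and 1210 FPKM in MrgprA3- control libraries. The ranges overlapped there, at 1250 to 1540 and 1070 to 1360 FPKM. In ACD mice they did not, at 1420 to 1530 and 1110 to 1230 FPKM. The difference of these sums was not tested. Of low-threshold C fibre markers 7 of 7 were lower, with sums of 10.9 to 91.4 FPKM in MrgprA3+ and 313 to 424 FPKM in MrgprA3- control libraries. Of NP2 markers (the MrgprA3 class) 7 of 8 were higher in control mice, where 8.64% of all genes were higher. In ACD mice 6 of the 8 were higher and 1 lower, against 6.84% and 15.2% of all genes. The cells were sorted on the MrgprA3 label, so the counts of this class are not independent of the sorting. Peptidergic nociceptor markers summed to 918 to 1410 FPKM in MrgprA3+ and 1610 to 2180 FPKM in MrgprA3- control libraries, and to 1060 to 1280 and 1410 to 2070 FPKM in ACD mice. Satellite glia markers, 4 of 8 of them lower in ACD mice, summed to 308 to 436 FPKM in MrgprA3+ and 382 to 555 FPKM in MrgprA3- ACD libraries. The part of these markers in the differences of the channels was not tested. In sorted pools of cells, fewer cells that express a gene and less of its RNA per cell cannot be told apart.

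**Figure D2:**
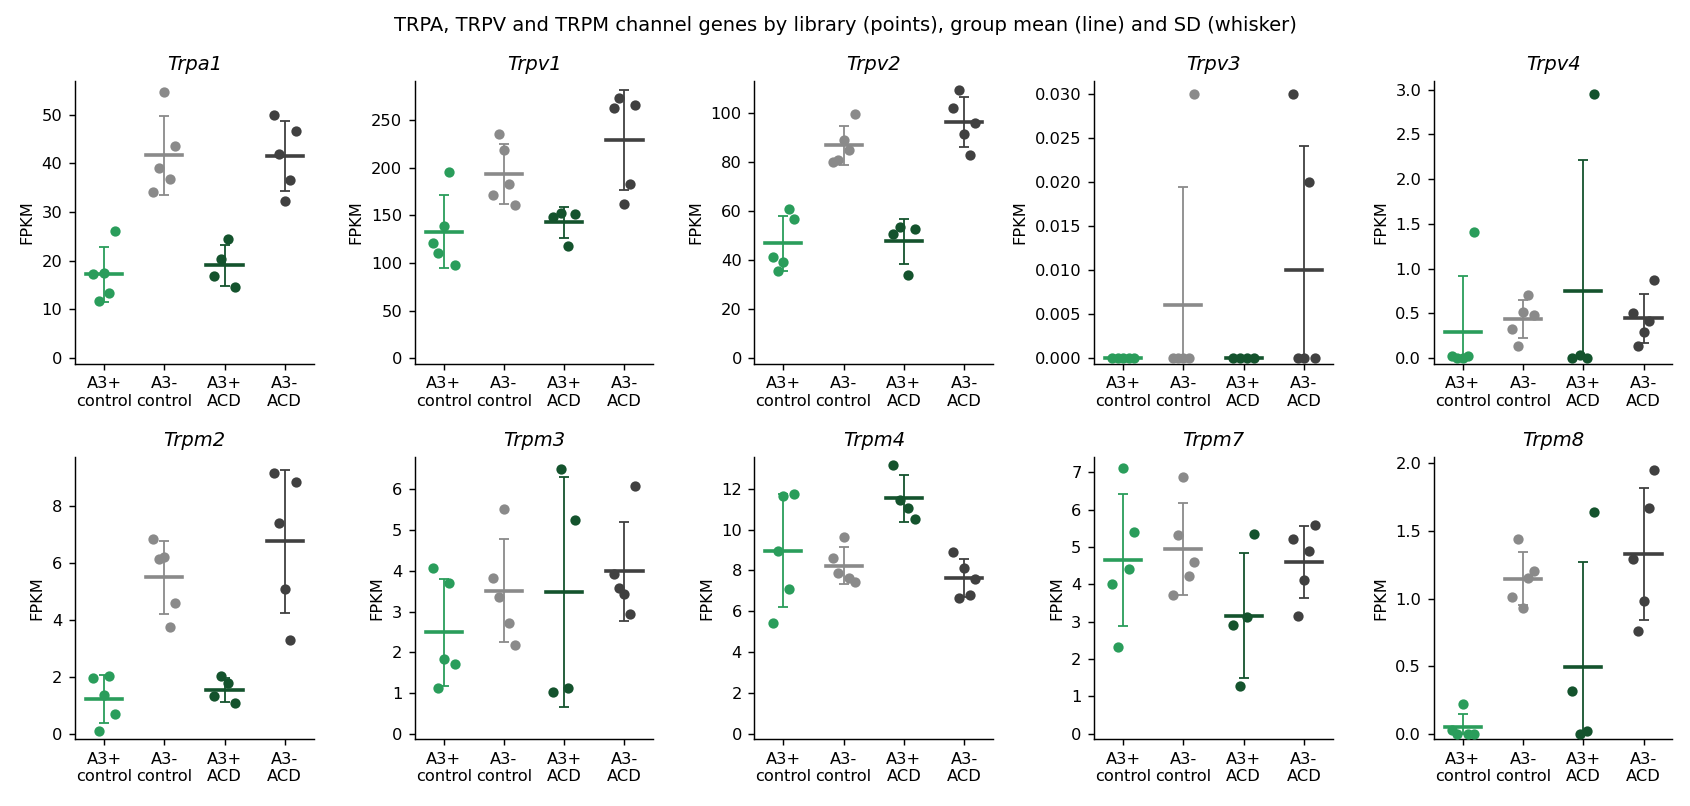
Each panel shows 1 channel gene, with a point per library, a line at the group mean and a whisker of 1 SD (cut at 0 where it would pass below), in FPKM on a linear axis of its own. The MrgprA3+ points of Trpa1, Trpv2 and Trpm2 lie below all MrgprA3- points of the same treatment, whereas those of Trpm3 and Trpm7 overlap them.

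Trpv1, the capsaicin receptor, stood at 120.43, 110.20, 138.47, 195.96 and 97.90 FPKM in the MrgprA3+ control libraries (replicates 1 to 5). In the MrgprA3- control libraries it stood at 171.26, 235.04, 218.35, 183.01 and 161.15 FPKM. The ranges overlapped through MrgprA3+ replicate 4, and the other 4 MrgprA3+ libraries lay below every MrgprA3- library. The difference was -0.57 (SE 0.17, 95% interval -0.92 to -0.22, adjusted p = 0.0136 with limma), from means of 133 and 194 FPKM. Under median-ratio rescaling it was -0.46 and did not pass (adjusted p = 0.061); over all other scalings, filters and fits and each left-out library the adjusted p with limma lay between 0.0013 and 0.0459. In ACD mice Trpv1 stood at 147.91, 152.61, 118.14 and 151.19 FPKM in MrgprA3+ libraries and at 262.23, 272.66, 161.47, 182.49 and 265.80 FPKM in MrgprA3- libraries. These ranges did not overlap, as was the case, in that direction, for 14.6% of all genes. The difference was -0.66 (SE 0.18, adjusted p = 0.00971 with limma).

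Trpa1, the irritant receptor, stood at 17.35, 11.68, 17.57, 13.40 and 26.18 FPKM in MrgprA3+ control libraries and at 34.11, 38.97, 54.74, 36.71 and 43.61 FPKM in MrgprA3- control libraries. Every MrgprA3+ value lay below every MrgprA3- value, a separation seen in that direction for 12.0% of all genes. The mean was 2.42 times as high in MrgprA3- neurons, and the difference of logs was -1.26 (SE 0.19, 95% interval -1.65 to -0.86, adjusted p = 2.84e-05 with limma). In ACD mice Trpa1 stood at 16.89, 20.33, 24.37 and 14.61 FPKM in MrgprA3+ and at 49.95, 41.88, 32.22, 36.64 and 46.73 FPKM in MrgprA3- libraries, again without overlap. The difference there was -1.09 (SE 0.20, adjusted p = 0.000377 with limma).

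Because both receptors fell, the ratio of Trpa1 to Trpv1 within each library was compared as well. The tested ratio was of FPKM + 1. Trpv1 was a median 7.88 times as high as Trpa1 in MrgprA3+ control libraries, 4.99 times in MrgprA3- control, 8.13 times in MrgprA3+ ACD and 5.25 times in MrgprA3- ACD libraries. The log2 ratio of Trpa1 to Trpv1 differed by -0.68 between MrgprA3+ and MrgprA3- control libraries (two-sided exact permutation p = 0.0714, adjusted over 4 comparisons 0.206) and by -0.44 in ACD mice (exact p = 0.103, adjusted 0.206). Neither difference passed, and the smallest p these group sizes allow is 0.00794. Replicate 5 of the MrgprA3+ control libraries held a ratio of 3.74, within the range of the MrgprA3- libraries. Without it the difference was -0.94, and over the 10 libraries left out in turn it lay between -0.94 and -0.46 (exact p = 0.00794 to 0.143, unadjusted). In ACD mice it lay between -0.64, without replicate 4 of the MrgprA3+ libraries, and -0.29 (exact p = 0.0179 to 0.232, unadjusted).

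**Figure D3:**
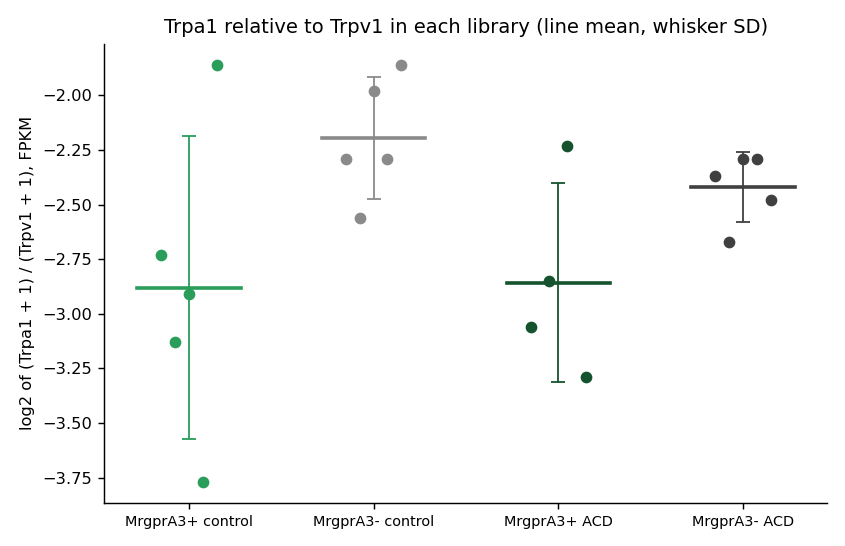
The log2 ratio of Trpa1 to Trpv1, each as FPKM + 1, is plotted per library for the 4 groups, with the group mean as a line and 1 SD as a whisker. The MrgprA3+ libraries spread over -3.77 to -1.86 in control mice, more widely than the MrgprA3- libraries at -2.56 to -1.86.

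Trpv2, a channel abundant in larger myelinated neurons as well as some smaller ones, stood at 41.26, 35.58, 39.35, 60.96 and 56.74 FPKM in MrgprA3+ control libraries. In MrgprA3- control libraries it stood at 79.82, 80.93, 88.86, 85.02 and 99.52 FPKM. The groups did not overlap, and the difference was -0.91 (SE 0.15, 95% interval -1.21 to -0.60, adjusted p = 6.38e-05 with limma). In ACD mice it stood at 50.48, 53.54, 34.04 and 52.64 FPKM in MrgprA3+ and at 102.12, 109.26, 91.38, 82.88 and 95.73 FPKM in MrgprA3- libraries, also without overlap. The difference was -1.01 (SE 0.16, adjusted p = 4.7e-05 with limma). Among the MrgprA3- control libraries Trpv2 had a coefficient of variation of 9.15%, the lowest of the 10 channels there. The summed level of large diameter neuron markers was 4010 to 5970 FPKM in MrgprA3+ and 4180 to 6060 FPKM in MrgprA3- control libraries. Of the 11 such markers tested, 9 were lower in MrgprA3+ control neurons (median difference -2.03), where 18.4% of all genes were lower. The part of large diameter neurons in the level of Trpv2 was not tested.

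Trpv4, the channel opened by swelling, reached 1.41 FPKM in replicate 5 of the MrgprA3+ control group and 2.95 FPKM in replicate 5 of the MrgprA3+ ACD group, and was 0.04 FPKM or lower in the other 7 MrgprA3+ libraries. In all 10 MrgprA3- libraries it lay between 0.14 and 0.87 FPKM. Thus 2 MrgprA3+ libraries were above every MrgprA3- library and the remaining ones were below every one of them. The summed satellite glia markers were 212 FPKM in the first of those 2 libraries, the lowest of its group. In the second they were 425 FPKM, in a group range of 308 to 436 FPKM. Macrophage and leukocyte markers summed to 8.48 FPKM in the first, the highest of its group, and 1.41 FPKM in the second. Endothelium markers summed to 0.08 and 3.46 FPKM and Schwann cell markers to 1330 and 1530 FPKM. The later value of each pair was the highest of its group. Those of fibroblasts and mural cells were 47.5 and 70.1 FPKM, each the lowest of its group. The part of these cells in the level of Trpv4 was not tested. Trpv3 was listed at 0 in every MrgprA3+ library and in 7 of 10 MrgprA3- libraries, and at no more than 0.03 FPKM in the rest, which corresponds to at most about 3 fragments. It lies directly beside Trpv1 on chromosome 11 on the same strand in the GENCODE M21 annotation.

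Trpm2, a channel gated by ADP-ribose and linked to warmth sensing, stood at 1.96, 0.09, 1.37, 2.04 and 0.70 FPKM in MrgprA3+ control libraries and at 6.84, 6.15, 6.21, 3.76 and 4.60 FPKM in MrgprA3- control libraries. The groups did not overlap, and the lowest library, replicate 2 of the MrgprA3+ group, held an estimated 7 fragments of it. The difference was -1.62 (SE 0.29, 95% interval -2.22 to -1.02, adjusted p = 0.000191 with limma), from means of 1.23 and 5.51 FPKM, and was -2.46 with a pseudocount of 0.1. In ACD mice Trpm2 stood at 1.32, 2.02, 1.78 and 1.08 FPKM in MrgprA3+ and at 9.19, 7.41, 5.10, 3.31 and 8.84 FPKM in MrgprA3- libraries, again without overlap (difference -1.55, SE 0.31, adjusted p = 0.000714 with limma).

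Trpm8, the menthol and cold receptor, stood at 0.03, 0, 0.22, 0 and 0 FPKM in MrgprA3+ control libraries, an estimated 0 to 11 fragments. In MrgprA3- control libraries it stood at 1.01, 1.44, 0.93, 1.15 and 1.20 FPKM, an estimated 52 to 91 fragments, so the groups did not overlap. The difference was -1.03 (SE 0.23, adjusted p = 0.00177 with limma), and under quantile normalization it was -0.46 and did not pass (adjusted p = 0.132; range over the other settings and left-out libraries 0.000412 to 0.0065). With a pseudocount of 0.1 in place of 1 it was -3.21, since the size of the difference at such low levels rests on the value added. In ACD mice it stood at 0.32, 0, 0.02 and 1.64 FPKM in MrgprA3+ and at 1.29, 0.76, 0.98, 1.67 and 1.95 FPKM in MrgprA3- libraries. Here replicate 5 of the MrgprA3+ group lay among the MrgprA3- values and the other 3 lay below them. The difference of -0.74 (SE 0.25, adjusted p = 0.0327 with limma) was -2.15 with a pseudocount of 0.1. Its call depended on the settings: the adjusted p was 0.442 under quantile normalization and 0.088 in a fit to the 2 groups alone. It was 0.0655, 0.118 and 0.112 without MrgprA3+ replicate 1, 2 or 4, and 0.0566, 0.0734 and 0.0921 without MrgprA3- replicate 1, 4 or 5, all in limma.

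Markers of cold-sensing neurons were set beside Trpm8. Of that list, which holds Trpm8 itself and the more widely expressed Tac1, 3 of 4 tested genes were lower in MrgprA3+ neurons under each treatment. Of all genes tested, 18.4% were lower in control and 15.2% in ACD mice. Trpm8 is among those 3 genes under each treatment, so the count is not independent of it. The 7 markers summed to 93.8 to 312 FPKM in MrgprA3+ and 1010 to 1340 FPKM in MrgprA3- control libraries, and Rxfp1 was listed at 0 in all 5 MrgprA3+ control libraries. In ACD mice the sums were 114 to 231 and 692 to 1360 FPKM, and the MrgprA3+ library with 1.64 FPKM of Trpm8 had a sum of 209 FPKM. The part of cold-sensing neurons in the level of Trpm8 was not tested.

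Trpm4, the calcium-activated monovalent cation channel, ran the other way in ACD mice without passing the test. It stood at 13.18, 11.43, 11.05 and 10.52 FPKM in MrgprA3+ ACD libraries and at 8.91, 6.66, 8.13, 6.80 and 7.58 FPKM in MrgprA3- ACD libraries. The ranges did not overlap, a separation in that direction seen for 6.21% of all genes. The difference was 0.54 (SE 0.20, 95% interval 0.13 to 0.96, adjusted p = 0.0547 with limma); the adjusted p was 0.0483 with no filter, 0.0234 under median-ratio rescaling, 0.0198 under quantile normalization and 0.0364 in a fit to the 2 groups alone, and as high as 0.128 when a library was left out. In control mice Trpm4 stood at 5.42, 8.97, 11.63, 7.11 and 11.74 FPKM in MrgprA3+ and at 8.61, 7.88, 9.63, 7.61 and 7.42 FPKM in MrgprA3- libraries. There the MrgprA3+ libraries lay on both sides of the MrgprA3- range, and the difference was 0.07 (95% interval -0.32 to 0.46, adjusted p = 0.828 with limma).

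Trpm3, a heat-activated channel, ranged from 1.12 to 4.07 FPKM in MrgprA3+ and 2.19 to 5.51 FPKM in MrgprA3- control libraries, and its difference of -0.41 (95% interval -1.12 to 0.30) did not pass. In MrgprA3+ ACD libraries it fell into a low and a high pair, 1.02 and 1.13 FPKM in replicates 1 and 4 and 6.51 and 5.26 FPKM in replicates 2 and 5. Trpm7, the channel kinase, ranged from 2.32 to 7.12 FPKM in MrgprA3+ and 3.72 to 6.88 FPKM in MrgprA3- control libraries (difference -0.11, 95% interval -0.67 to 0.44). In ACD mice its difference was -0.50 (95% interval -1.09 to 0.09, adjusted p = 0.224 with limma). These intervals leave room for differences of the size seen for Trpv1. Trpm3, Trpm4, Trpm7 and Trpm8 overlap genes on the other strand in the GENCODE M21 annotation, among them the pseudogene Rpl14-ps1 for Trpm4. Whether the counting used strand is not given in the sources used here, so reads of such pairs cannot be told apart. On the same strand Trpm2 overlaps Gm22394 and Gm22871, and Trpm3 overlaps AC124513.1 and Mir204. How reads of these overlaps were counted is not given either.

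**Figure D4:**
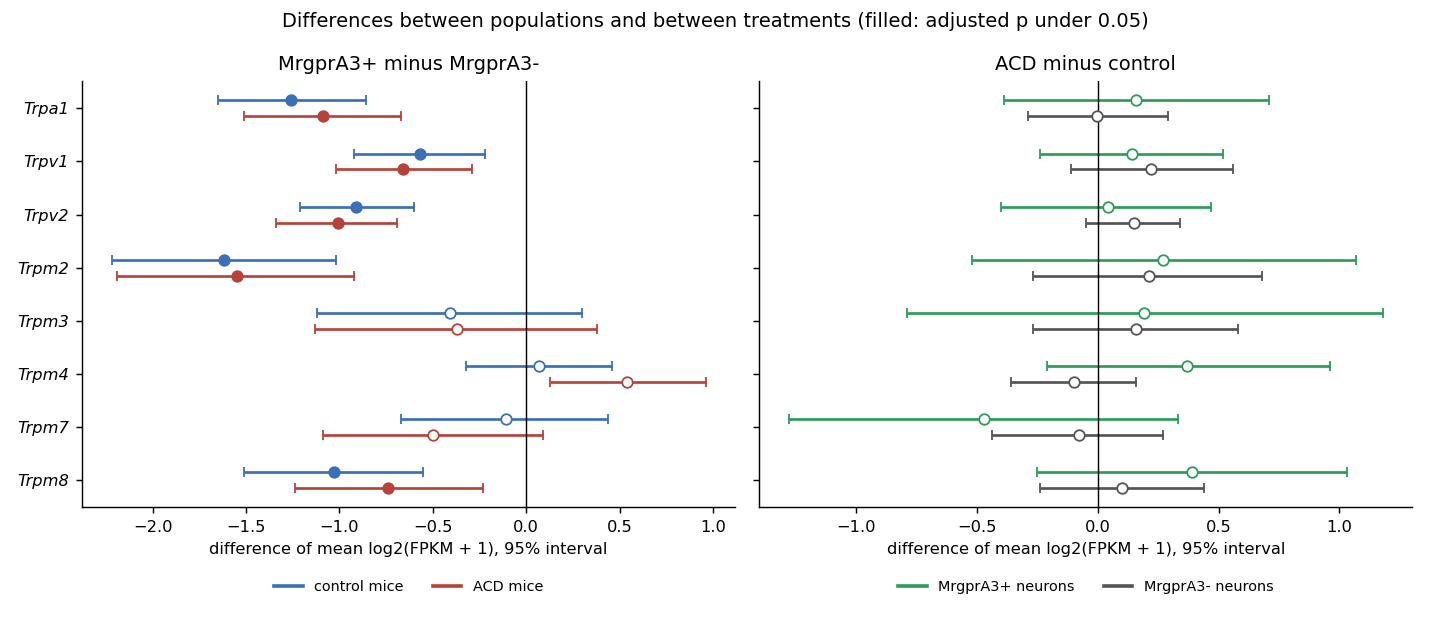
Points give the difference of mean log2(FPKM + 1) of the 8 tested channels and bars its 95% interval, between populations on the left and between treatments on the right; filled points passed the adjusted threshold. Trpa1, Trpv1, Trpv2, Trpm2 and Trpm8 are filled on the left under both treatments, and no point on the right is filled.

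ACD and control mice were then compared within each population, to ask whether dermatitis of the skin changed these channels in the neurons of the ganglia that serve it. In MrgprA3+ neurons 0 of the 8 channels passed at an adjusted or an unadjusted p under 0.05 in limma, where 0% of all genes passed adjusted and 5.54% unadjusted. In MrgprA3- neurons 0 of 8 passed by either measure, against 0.108% and 8.44% of all genes. The median difference of the 8 was 0.18 in MrgprA3+ and 0.12 in MrgprA3- neurons, and that of all genes was -0.01 and -0.02.

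For Trpa1 the difference between ACD and control was 0.16 (95% interval -0.39 to 0.71) in MrgprA3+ and -0.0026 (95% interval -0.29 to 0.29) in MrgprA3- neurons. For Trpv1 it was 0.14 (95% interval -0.24 to 0.52) in MrgprA3+ and 0.22 (95% interval -0.11 to 0.56) in MrgprA3- neurons, where 3 of 5 ACD libraries, replicates 1, 2 and 5, exceeded all 5 control libraries. The intervals for these receptors are narrower in MrgprA3- than in MrgprA3+ neurons. Trpv2 differed by 0.04 (95% interval -0.40 to 0.47) and 0.15 (95% interval -0.05 to 0.34). The log2 ratio of Trpa1 to Trpv1 differed by 0.03 in MrgprA3+ (exact permutation p = 0.976) and by -0.22 in MrgprA3- neurons (exact p = 0.19). With a library left out the latter lay between -0.32, without replicate 2 of the MrgprA3- control group, and -0.14 (exact p = 0.0397 to 0.341, unadjusted).

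Trpm4 had a difference of 0.37 (95% interval -0.21 to 0.96) in MrgprA3+ and -0.10 (95% interval -0.36 to 0.16) in MrgprA3- neurons. The test of the difference between these effects gave 0.48 (95% interval -0.10 to 1.05, unadjusted p = 0.0986, adjusted p = 0.994 with limma). Trpm7 differed by -0.47 (95% interval -1.28 to 0.33) and -0.08 (95% interval -0.44 to 0.27), and Trpm8 by 0.39 (95% interval -0.25 to 1.03) and 0.10 (95% interval -0.24 to 0.44). None of the 8 channels passed the test of a difference in effect between the populations, either adjusted or at an unadjusted p under 0.05 in limma, where 0% and 4.61% of all genes did. In MrgprA3+ neurons the intervals of Trpm2, Trpm3 and Trpm8 reach past 1 on the log2 scale, so a doubling of FPKM + 1 was within them. The interval of Trpm7 reached down to -1.28, so a fall of the same log2 size as a doubling was within it.

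The remaining TRP genes and the proteins that act on these channels were counted for comparison. Of 18 other TRP genes 15 were in the table and 10 were tested. Trpc4 and Trpc7, channels of the canonical family, were lower in MrgprA3+ control neurons, by -1.85 (SE 0.21; 0.224 against 3.30 FPKM) and -1.07 (SE 0.19; 0.018 against 1.17 FPKM). In ACD mice the differences were -1.59 and -1.38. Neither gene reached 1 FPKM in any MrgprA3+ library, so both passed the filter through MrgprA3- libraries alone and had to differ. The list medians were -0.30 and -0.42.

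Of 48 partners and regulators of TRP channels 44 were tested, and 9 were higher and 9 lower in MrgprA3+ control neurons (20.5% each, where 8.64% of all genes were higher and 18.4% lower), with a median difference of 0.03. The largest differences were falls, of Plcd4, a phospholipase C (-3.35, SE 0.39; 1.38 against 20.1 FPKM), and of Gfra3 and Gfra2, receptors for the growth factors artemin and neurturin (-2.86, SE 0.29, and -2.81, SE 0.44). In ACD mice 8 were higher and 10 lower (18.2% and 22.7%, against 6.84% and 15.2% of all genes). The largest differences there were of Hrh1, the histamine H1 receptor (2.85, SE 0.25, with 22.6 against 2.28 FPKM), Plcd4 (-2.48) and Gfra2 (-2.37). The partner list shares genes with the marker lists, among them Hrh1 with NP2 markers and Gfra2 with those of low-threshold C fibres. Its counts are thus not independent of the marker counts. Of the 10 TRP genes and 44 partners tested, 0 passed for dermatitis in either population in limma; 0 and 3 had an unadjusted p under 0.05 in MrgprA3+ neurons, where 5.54% of all genes did, and 3 and 5 in MrgprA3- neurons, where 8.44% did.

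Genes whose log2 levels followed each channel most closely over the 19 libraries were named by the root mean square of the difference of centred values, which rewards a like size of change as well as a like pattern. Nearest to Trpa1 were Idi1 (0.217), Phf24 (0.233) and Clcn6 (0.248), against a root mean square of 0.657 for Trpa1 itself. Nearest to Trpv1 was Tcaf1 (0.217), followed by Usp20 (0.23) and Golga3 (0.239). Nearest to Trpv2 were Dhcr7 (0.14), Parp1 (0.171) and Slc25a22 (0.173). Nearest to Trpm2 was Scg2 (0.343), to Trpm8 Prkg2 (0.185), and to Trpm4 Rab9 (0.201). Dhcr7, nearest to Trpv2, averaged 8.2 and 17.3 FPKM in MrgprA3+ and MrgprA3- control libraries and 8.43 and 18.9 FPKM in ACD mice. Among the channels themselves Trpa1 was nearest to Trpv2, which ranked 123 of all genes for it, and Trpv1 ranked 1096. These values describe 19 libraries that share 2 populations, and the part of the population difference in the likeness was not separated.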

How the data were processed

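Sequencing libraries of polyadenylated RNA from sorted neurons were analysed. The submitters' processing notes name Bowtie2 and the build mm9; which Bowtie2 version, gene annotation and quantifier were used is not given in the sources used here, and the counting of strand likewise. The authors deposited FPKM values, rounded to 2 decimals, for 18666 genes, and reads were not used here. Low FPKM values of 1068 genes of 300 to 900 bases gave the depth: 72.2% to 79.5% of them lay within 0.2 of a whole multiple of 1 fragment, against 40% by chance for a fixed step, so depths and fragment numbers are approximate, and count models were not used. Lengths came from GENCODE M21.

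A further 25 symbols read as dates and 8 as dashes, none of them a channel described here. The 11996 genes that reached 1 FPKM in 4 or more of 19 libraries were tested. Group means of log2(FPKM + 1) were fitted with limma 3.58.1 (R 4.3.3; moderated variances with a mean trend, robust, through statmod 1.5.0), to all 4 groups for the population difference and for the difference in effect, and to the 2 compared groups for dermatitis. The two-sided p-values were adjusted over all genes tested by the method of Benjamini and Hochberg. The ratio of Trpa1 to Trpv1 was tested by exact permutation of libraries (Python 3.11.15, numpy 2.4.6). The fits were also run on simulated data, and no result of those runs is given here. Positions of genes and promoters are from GRCm38 references and were not set against the mm9 values.

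The channels, gene lists and marker lists were chosen with earlier results of these data known; all 10 channels are named, and of each other list the 3 genes with the largest difference past the threshold, except 1 result that is not reported here. Alternatives were a pseudocount of 0.1, no filter, a filter of 5 FPKM, median-ratio and quantile scaling, the replicate number as a block, the other choice of groups in the fit and each library left out. For the population difference and the difference in effect the block was the replicate number within a treatment. For dermatitis it joined same-numbered control and ACD libraries, which are of different mice. Whether replicates 1 to 5 came from separate mice is implied by the labels and not stated per library, so p-values measure the spread between these libraries.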

Additional observations from a re-analysis of the deposited data

Results flagged for a closer look

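Each value named here lay apart from the others of its group by more than the 95% critical value of Dixon's test, in 6 of 42 groups of values tested. Chance gives about 1 in 20 for continuous values, a rate that does not hold for groups made mostly of values at or near 0, which hold 4 of the 6: those of Trpv3, Trpv4 and Trpm8. Trpv4 was 1.41 FPKM in replicate 5 of the MrgprA3+ control group and 2.95 FPKM in replicate 5 of the MrgprA3+ ACD group, against 0.04 FPKM or less in the rest of both groups. Trpm8 was 0.22 FPKM in replicate 3 of the MrgprA3+ control group, against 0.03 FPKM or less in the others, an estimated 11 fragments. Trpv3 was 0.03 FPKM in replicate 5 of the MrgprA3- control group and listed at 0 in the other 4. Trpv1 was 118.14 FPKM and Trpv2 34.04 FPKM in replicate 4 of the MrgprA3+ ACD group, each below the other 3 libraries. In that same library Trpa1 was 24.37 FPKM, the highest of its group.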

How the results depend on the processing

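The counts of channels past the threshold were 4 or 5 in control mice and 4 to 6 in ACD mice under the alternatives run, and 0 for dermatitis and for the difference in effect. Trpa1, Trpv2 and Trpm2 passed in both treatments under each of them. In control mice Trpv1 gave -0.46 under median-ratio rescaling and Trpm8 -0.46 under quantile normalization, both short of the threshold. In ACD mice Trpm8 gave -0.27 under quantile normalization, -0.74 in a fit to the compared groups alone and -1.05 to -0.58 with a library left out, and Trpm4 0.48 to 0.60 with a library left out. The causes were not tested. In the tests of dermatitis over all genes, 0 genes passed in MrgprA3+ neurons and 42 in a fit of all 4 groups, and 0 to 1 with a library left out. In MrgprA3- neurons 13 passed, 6 with a pseudocount of 0.1, 0 with no filter, 2 with the replicate block, 0 in a fit of all 4 groups and 4 to 13 with a library left out. For the difference in effect 0 genes passed, 0 to 1 with a library left out, and 2 without number 5 of both MrgprA3+ groups, an alternative chosen after seeing the data.

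Signs turned only for differences that did not pass. With the replicate block Trpv2 in dermatitis of MrgprA3+ neurons was -0.02 and the difference in effect of Trpm2 -0.0036. Under quantile normalization Trpm7 in control mice was 0.11, Trpa1 in dermatitis of MrgprA3- neurons 0.01 (0.03 under median-ratio rescaling) and the difference in effect of Trpm2 and of Trpm3 -0.05; the latter was -0.02 with a pseudocount of 0.1. Without number 2 of both MrgprA3+ groups Trpm7 in control mice was 0.07, dermatitis in MrgprA3+ neurons gave -0.11 for Trpv2, -0.05 for Trpm2 and -0.30 for Trpm3, and the difference in effect was -0.25 for Trpm2 and -0.45 for Trpm3. Without number 5 of both, Trpm4 in control mice was -0.03, Trpm3 in dermatitis of MrgprA3+ neurons -0.12, and the difference in effect -0.28 for Trpm3 and -0.04 for Trpm8.
With a library left out, the population difference in control mice was -0.26 to 0.07 for Trpm7 and -0.03 to 0.22 for Trpm4. Dermatitis gave -0.05 to 0.19 for Trpv2 and -0.14 to 0.49 for Trpm3 in MrgprA3+ neurons, and -0.07 to 0.10 for Trpa1 and -0.16 to 0.02 for Trpm7 in MrgprA3- neurons. The difference in effect was -0.17 to 0.20 for Trpm2, -0.29 to 0.34 for Trpm3, -0.20 to 0.07 for Trpv1, -0.20 to 0.04 for Trpv2 and -0.02 to 0.45 for Trpm8. The log2 ratio of Trpa1 to Trpv1 differed between populations by -0.94 to -0.46 in control and -0.64 to -0.29 in ACD mice, and between treatments by -0.20 to 0.28 in MrgprA3+ and -0.32 to -0.14 in MrgprA3- neurons.

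Both populations came from each mouse, but the labels do not say that a replicate number marks a mouse. The main fit therefore did not pair the libraries and leaves out any pairing by mouse. Same-numbered MrgprA3+ and MrgprA3- libraries had deviations correlated at -0.0563 to 0.139 in control and -0.011 to 0.193 in ACD mice. Of the MrgprA3+ libraries 2 of 5 and 3 of 4 correlated best with their own number. These correlations do not decide whether the numbers pair the libraries. With the replicate block 3123 and 2399 genes differed between the populations in control and ACD mice, against 3241 and 2647 without it, and 5 channels in each. In MrgprA3+ libraries Trpm8 rested on an estimated 0 to 11 fragments in control and 0 to 108 in ACD mice. For Trpv4 the estimates were 0 to 58 and 0 to 151, and for Trpv3 they were 0. The values of these genes near 0 thus rest on few fragments.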
